A study of Mus musculus with 8 samples.

Results

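The cells described are fibroblasts of the mouse ascending thoracic aorta with high levels of Lum and Serpinf1 transcripts. They were chosen by measured transcript levels, as the top 429 of 1288 gated fibroblasts (of 48467 barcodes in all) on a score, and are called members here. A barcode entered the gate with at least 500 genes, at most 20% mitochondrial UMIs (unique molecular identifiers, each a counted transcript molecule) and fewer than 10 haemoglobin UMIs. It also needed at least 0.3% of its UMIs from Dcn (decorin, a fibroblast proteoglycan), under 0.5% from Acta2, Tagln and Myh11 (smooth muscle) and at most 1 UMI of Pecam1, Cdh5 (endothelium) and Ptprc (leukocytes). The score added the log levels (natural log of 1 plus the UMIs in 10000) of Lum, Serpinf1, Tgfbi, F3 and Dio2 and subtracted those of Pi16, Clec3b, Scara5, Pla1a and Sema3c. They are compared with the 430 cells next in score, the mid-score cells, and the 429 cells below those are the low-score cells.

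The tissue came from 3 young wild-type mice, at 11, 12 and 13 weeks of age, and no treatment, allele or second age group was part of the design. It was digested for 60 min at 37 °C with collagenase and elastase, and the cells were marked with 1 hashtag antibody per age. The barcodes of 4 gene expression and 4 hashtag libraries were deposited as 1 matrix without a library label, and 0 barcodes occurred more than once in it. The labels name no strain or sex.

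The outer layer of the aortic wall, the adventitia, and the connective tissue around the vessel hold fibroblasts of several transcriptional states. A state marked by Pi16, Dpp4 and Ly6 genes is found around vessels of many organs, while other fibroblasts carry more matrix and signalling transcripts. Lumican (Lum) is a small leucine-rich proteoglycan that binds collagen fibrils, and pigment epithelium-derived factor (Serpinf1) is a secreted serpin known for its action against new vessel growth. Tgfbi is a matrix protein induced by TGF-beta, F3 is tissue factor, the starter of the extrinsic clotting cascade, and Dio2 is the deiodinase that turns thyroxine into active thyroid hormone.

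The replicates rest on 3 hashtag oligonucleotides of 15 bases, shown because every test below depends on telling them apart.
Hashtag 1 (11 weeks): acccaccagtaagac
Hashtag 2 (12 weeks): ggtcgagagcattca
Hashtag 3 (13 weeks): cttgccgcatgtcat
The oligonucleotides differed from each other at 11 or 12 positions. Of the 44898085 hashtag UMIs, hashtag 1 held 6747901, hashtag 2 held 18847895 and hashtag 3 held 19302289. In most cells the hashtags did not separate: of the members, 41, 21 and 27 cells carried a single hashtag 1, 2 or 3 by HTODemux, 41 carried more than 1 and 299 carried none above background. The mid-score cells had 33, 23 and 28 single-hashtag cells. A stricter caller built on hashtag ratios gave the same hashtag to 59 of the 262 single-hashtag cells of the gate, another hashtag to 0 and no hashtag to 203. The summed single-hashtag cells of a score group are called a hashtag set, and the tests compare 3 sets of members with 3 sets of mid-score cells, 89 against 84 cells. Deviations of the same-numbered sets from their group means correlated at 0.01, 0.01 and 0.06 across genes, so the data give no sign that a number carries an animal's own profile. The p-values then measure the spread between these sets, which may be technical.

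Members made up 36.0% of the gated cells of hashtag 1 (95% exact binomial interval 27.2 to 45.5%), 32.8% of hashtag 2 (21.6 to 45.7%) and 32.1% of hashtag 3 (22.4 to 43.2%). These intervals overlap, and they cover counting error only. Members had a median of 4212 UMIs and 1704 genes and 10.1% mitochondrial UMIs, and the mid-score cells 3986.5 UMIs, 1650.5 genes and 9.51%. The low-score cells were deeper, with 5596 UMIs. Acta2 had a UMI in 96.0% of members and in 98.8% of 569 gated endothelial cells. Whether such UMIs were free RNA, doublets or low expression was not tested. A share of cells is therefore read below against cells of other types, which need not lack the gene. No caller of doublets from expression was run.

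The label was checked against markers of wall cell types. All 6 fibroblast markers (Dcn, Col1a1, Col1a2, Pdgfra, Gsn, Dpt) were present in members, at a summed 31295 CPM (counts scaled to a common total of UMIs), against 30441 CPM in the mid-score cells. The 6 endothelial markers summed to 45 UMIs in members and 125 UMIs in the mid-score cells, and the 6 leukocyte markers to 89 and 149 UMIs. The pericyte list summed to 1392 UMIs in members and 845 UMIs in the mid-score cells, with Higd1b at 0 in both. Most of these came from Abcc9, a subunit of a potassium channel, at 480 CPM in members and 349 CPM in the mid-score cells. Its channel partner Kcnj8 had 187 UMIs in members and 73 UMIs in the mid-score cells, with a UMI in 30.5% and 14.4% of cells. Ndufa4l2 stood at 119 CPM in members and 44.3 CPM in the mid-score cells, with a UMI in 34.7% and 13.0% of cells. Rgs5 was scarcer, at 43.3 and 25.2 CPM, and Notch3 was at 2.67 and 3.28 CPM. The part of these transcripts in the results was not tested. The mesothelial list differed most: members held 7 UMIs of Msln, Upk3b, Lrrn4 and Wt1 together, with Krt19 and Krt8 at 0, while the mid-score cells held 902 UMIs of the 6 genes. The mesothelium is the cell sheet that covers the heart and great vessels. Barcodes with at least 2 mesothelial UMIs numbered 1 of 429 members and 33 of 430 mid-score cells, where they held 10.3% of the UMIs. Among the cells with a single hashtag they numbered 1 of 89 and 14 of 84, with 25.4% of the UMIs of the mid-score cells, so values without these barcodes are given beside the genes and lists whose call, direction or count they bear on.

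The score genes chose the cells, and their levels are a description with no test. Lum averaged 3276 ± 428 CPM in the members' sets (2783, 3547 and 3497 CPM) and 988 ± 343 CPM in the mid-score cells (1326, 640 and 998 CPM; SD, n = 3 sets each). It had a UMI in 98.8% of members and 85.8% of the mid-score cells, against 9.31% of endothelial cells and 4.94% of 162 leukocytes, whose median depths were 3215 and 3545 UMIs. Serpinf1 differed less, at 1231, 1330 and 1520 CPM in members and 954, 556 and 771 CPM in the mid-score cells. F3 had 476, 644 and 613 CPM in members and 237, 152 and 170 CPM in the mid-score cells. Each of these genes had its lowest members' set above the highest mid-score set.

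Dio2 was the scarcest of the added genes, a transcript that most members did not show. Pooled over all cells it stood at 179 CPM in members (95% Poisson interval 160 to 199) and 22.4 CPM in the mid-score cells (16.1 to 30.4). It had a UMI in 34.0% of members and 5.35% of the mid-score cells, against 1.05% of endothelial cells. Tgfbi had a UMI in 72.0% of members and 39.3% of the mid-score cells, against 17.3% of leukocytes, which also hold this transcript. Of the members, 17.2% carried all 5 added genes and 45.7% carried 4. Of the mid-score cells, 1.16% carried 5 and 18.1% carried 4.

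The subtracted genes were reduced in members and not missing from them. Clec3b (tetranectin, a plasminogen-binding protein) had a UMI in 63.9% of members and 88.1% of the mid-score cells, Scara5 (a ferritin receptor) in 40.3% and 65.1%, and Pi16 (a peptidase inhibitor) in 47.8% and 59.8%. In endothelial cells Pi16 and Clec3b had shares of 7.21% and 7.03%. Sema3c, a secreted guidance factor, stood at 18.7 CPM in members and 133 CPM in the mid-score cells, and Pla1a, a phospholipase, at 2.67 CPM and 13.7 CPM. The 7.93% of members with a Sema3c UMI lay below the 11.8% of endothelial cells, 16.0% of leukocytes and 28.9% of smooth muscle cells. They are not told apart from background. Only 13.5% of members lacked all 5 subtracted genes. The cut is a point on a continuous scale: the 10 members with the lowest scores lay between 2.89 and 2.95, and the 10 cells just outside between 2.79 and 2.87. Dio2 was seen in 4 of these 10 members and 1 of these 10 outsiders, and Tgfbi in 5 and 7. The groups are ranges of a score and not separate cell types.

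**Figure D1:**
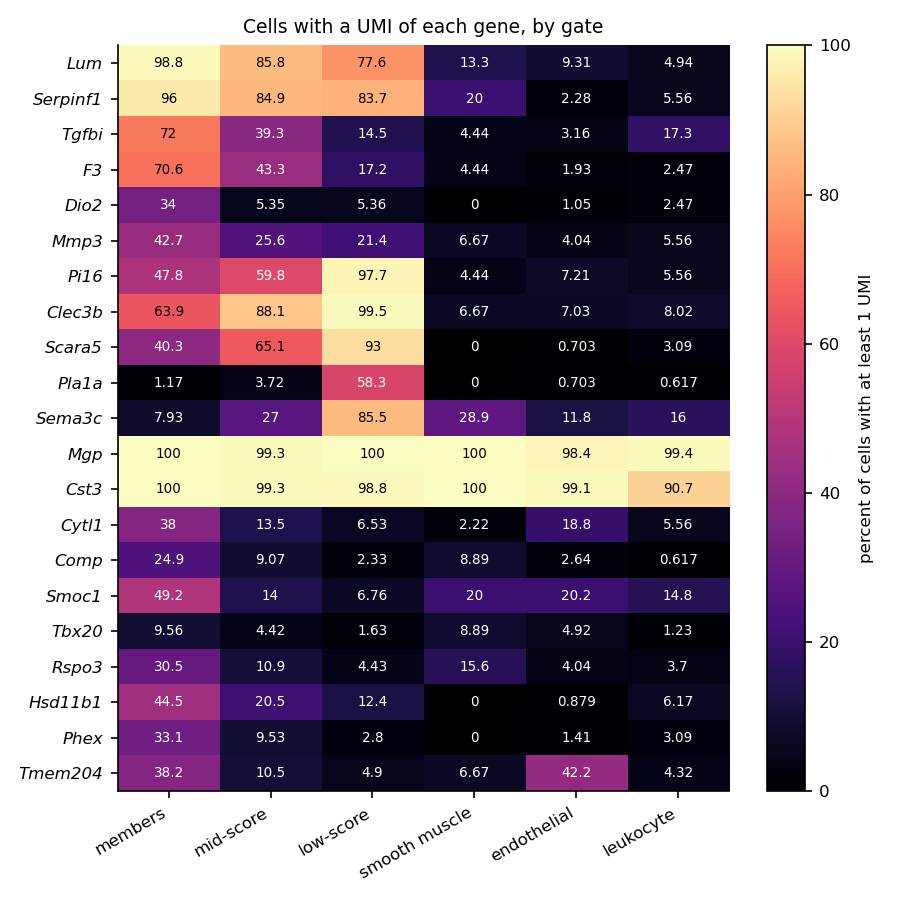
Percent of cells with at least 1 UMI of each score gene, of Mmp3 and of other named genes (rows) in the members, the mid-score cells, the low-score cells and gated smooth muscle, endothelial and leukocyte cells (columns). Lum is in 98.8% of members and 85.8% of the mid-score cells, and Dio2 in 34.0% and 5.35%, while endothelial cells hold them in 9.31% and 1.05%. Mgp and Cst3 are in most cells of every gate.

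Mmp3, the matrix protease stromelysin, was the only one of the 6 markers given for these cells that the score did not use. It had 1252, 1214 and 256 CPM in the members' sets, against 271, 539 and 162 CPM in the mid-score cells. The sets overlapped, since the members' set of hashtag 3 lay below the mid-score sets of hashtags 1 and 2, but within each hashtag members were higher. The log2 fold change was 1.48 ± 0.26 (SE; edgeR quasi-likelihood test, adjusted p = 3.03e-04) and 1.05 without the mesothelial barcodes (edgeR adjusted p = 0.00233). Without hashtag set 1 it was 1.00 and missed the threshold (edgeR adjusted p = 0.0598). The difference was smaller in the 340 members and 346 mid-score cells without a single hashtag, which the test did not use. There Mmp3 stood at 881 CPM in members and 684 CPM in the mid-score cells, a log2 ratio of 0.37 (0.28 without mesothelial barcodes). Mmp3 was unevenly spread: 42.7% of members and 25.6% of the mid-score cells had a UMI, and the tenth of members with the highest level held 64.2% of the summed level.

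The promoters of Mmp3, F3 and Dio2 are shown because these 3 marker genes carried a motif searched for in the 250 bases before the start site. They are RefSeq sequences of build GRCm38.p6, written 5′ to 3′ on the gene's strand. Capitals mark TATAAA, searched on the gene's strand, and TGANTCA, the AP-1 motif, searched on both strands.
Mmp3, chr9:7445572-7445821, plus strand: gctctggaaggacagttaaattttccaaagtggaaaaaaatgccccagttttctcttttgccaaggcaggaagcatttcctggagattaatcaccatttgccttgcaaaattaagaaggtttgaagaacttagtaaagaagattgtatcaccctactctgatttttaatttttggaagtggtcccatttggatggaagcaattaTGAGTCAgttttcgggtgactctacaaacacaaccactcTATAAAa
F3, chr3:121723287-121723536, plus strand: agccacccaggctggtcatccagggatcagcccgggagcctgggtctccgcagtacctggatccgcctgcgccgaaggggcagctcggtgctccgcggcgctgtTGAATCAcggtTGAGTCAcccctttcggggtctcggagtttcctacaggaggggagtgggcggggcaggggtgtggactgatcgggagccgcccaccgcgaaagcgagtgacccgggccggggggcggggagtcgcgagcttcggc
Dio2, chr12:90739039-90739288, minus strand: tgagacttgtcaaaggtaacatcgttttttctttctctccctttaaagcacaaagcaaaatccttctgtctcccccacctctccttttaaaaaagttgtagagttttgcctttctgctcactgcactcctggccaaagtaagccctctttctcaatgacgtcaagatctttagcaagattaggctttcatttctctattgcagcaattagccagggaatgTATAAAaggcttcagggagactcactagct
F3 held 2 AP-1 motifs, at -146 to -140 and at -135 to -129 from the start site. Mmp3 held 1, at -46 to -40, with TATAAA at -7 to -2, and Dio2 held TATAAA at -30 to -25. The motifs did not overlap each other. Of all 27025 promoters in the table, 6.87% held TGANTCA and 8.12% held TATAAA. Of the 2172 genes tested below, 1717 had a promoter in the table, and 4.83% and 5.24% of these held the motifs. Of the genes higher in members by that test, 44 of 70 had a promoter in the table, and 2.27% (1 gene) and 6.82% (3 genes) of these held the motifs. The matches describe letters only.

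Outside the genes that the rule used, 2172 genes were tested in the 9 sets. Members had 70 genes higher (3.22% of those tested) and 122 lower (5.62%) at an edgeR adjusted p under 0.05. The median log2 fold change over all tested genes was -0.01. At an unadjusted p under 0.05 the counts were 172 and 256. DESeq2 on the same sets called 29 higher and 53 lower. Without the mesothelial barcodes 1953 genes were tested, of which 55 were higher (2.82%) and 118 lower (6.04%), and 43 of the 70 and 61 of the 122 genes were called in both. Because the groups were cut on transcripts of the same cells, these differences describe which other transcripts varied with the score.

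Cells without a single hashtag took no part in the test and are a second look at the same genes. In the 340 such members and 346 such mid-score cells, 67 of the 70 higher genes and 118 of the 122 lower genes had the same direction. Leaving out mesothelial barcodes left 67 of the 70 and 99 of the 122. The exceptions among the higher genes were Vcam1, Sparcl1 and Scara3, named after their values were seen. Vcam1, an adhesion receptor for leukocytes, stood at 125 CPM in these members and 154 CPM in these mid-score cells. The differences were smaller in these cells than in the test. The median log2 ratio was 0.91 for the higher genes, against 1.35 in the test, and -0.91 for the lower genes, against -1.41. Of the genes, 31 of the 70 and 57 of the 122 differed at least 2-fold here. The share with a kept direction over all tested genes was not computed.

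The leading transcript of the members was Mgp, matrix Gla protein, an inhibitor of calcification in arteries and cartilage. Mgp had 27677, 40880 and 36169 CPM in the members' sets, against 6873, 7798 and 8311 CPM in the mid-score cells. The groups lay far apart, with a log2 fold change of 2.16 ± 0.13 (edgeR adjusted p = 6.08e-11) and 1.96 without mesothelial barcodes. In the cells outside the test Mgp stood at 31687 CPM in members and 10048 CPM in the mid-score cells. Mgp stood at 4224 CPM in gated endothelial cells and 4170 CPM in leukocytes, below both groups.

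Cst3, which encodes cystatin C, a secreted inhibitor of cysteine proteases, followed the same pattern. It had 16942, 21211 and 20332 CPM in the members' sets, against 6752, 5937 and 7110 CPM in the mid-score cells. The log2 fold change was 1.54 ± 0.12 (edgeR adjusted p = 8.65e-09), and 1.25 without mesothelial barcodes. Timp3, an inhibitor of metalloproteases bound to the matrix, had 3082, 3653 and 2060 CPM in members, against 1279, 1112 and 1217 CPM in the mid-score cells (log2 fold change 1.25 ± 0.17, edgeR adjusted p = 1.44e-05; 0.95 without mesothelial barcodes). None of these sets overlapped. Timp1, the soluble inhibitor, was past the threshold only narrowly (log2 fold change 1.02 ± 0.32, edgeR adjusted p = 0.0433), and its call was lost without hashtag set 1 (edgeR adjusted p = 0.211), without set 2 (0.627), without the hashtag block (0.12) and narrowly without mesothelial barcodes.

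Matrix and matricellular genes, Mgp included, were 5 of the 15 genes with the largest increases. Comp, a collagen-binding matrix protein of cartilage and tendon, had 289, 729 and 183 CPM in the members' sets, against 40.6, 33.7 and 8.12 CPM in the mid-score cells (log2 fold change 3.70 ± 0.38, edgeR adjusted p = 3.28e-07). Smoc1, a secreted protein of the SPARC family, had 241, 401 and 348 CPM in members, against 47.4, 33.7 and 40.6 CPM in the mid-score cells (2.93 ± 0.38, edgeR adjusted p = 7.12e-06). Ccn2, connective tissue growth factor, had 722, 528 and 613 CPM in members, against 216, 109 and 130 CPM in the mid-score cells (2.00 ± 0.28, edgeR adjusted p = 1.76e-05). All members' sets of these 3 genes lay above all sets of the mid-score cells. Ccn2 is not particular to fibroblasts in this tissue. It had a UMI in 62.9% of members and 39.3% of the mid-score cells, against 44.5% of endothelial cells, 46.3% of leukocytes and 97.8% of smooth muscle cells. Ccn5, a relative of Ccn2 that lacks its C-terminal domain, was also higher (2.19 ± 0.48, edgeR adjusted p = 0.00337), and lost the call without hashtag set 1 (edgeR adjusted p = 0.0543) and without set 3 (0.0649). Comp was scarce per cell, and 322 of the 429 members had none. Its direction depended on the score: in groups cut on the 5 added genes alone, Comp was lower in the top group (-1.60, edgeR adjusted p = 0.00535).

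Secreted signals and enzymes made up the next group. Cytl1, a small cytokine-like protein first known from cartilage, had 1953, 855 and 815 CPM in the members' sets, against 142, 25.3 and 170 CPM in the mid-score cells (log2 fold change 3.35 ± 0.41, edgeR adjusted p = 4.05e-06). Rspo3, an R-spondin that strengthens Wnt signals, had 219, 401 and 201 CPM in members, against 54.1, 0 and 64.9 CPM in the mid-score cells (2.64 ± 0.46, edgeR adjusted p = 3.16e-04). Both had every members' set above the mid-score cells. Hsd11b1, the enzyme that regenerates active glucocorticoid, had 193, 127 and 238 CPM in members, against 47.4, 33.7 and 16.2 CPM in the mid-score cells (2.44 ± 0.43, edgeR adjusted p = 3.29e-04). Rbp4, the carrier of retinol, had 417, 517 and 586 CPM in members, against 176, 109 and 89.3 CPM in the mid-score cells (1.95 ± 0.26, edgeR adjusted p = 1.34e-05). The heparin-binding growth factor Mdk (1.75 ± 0.33, edgeR adjusted p = 6.21e-04) and Phex, an endopeptidase linked to phosphate balance and mineralisation (2.33 ± 0.50, edgeR adjusted p = 0.00267), were higher too. Without hashtag set 1, Cytl1 (edgeR adjusted p = 0.0543), Rspo3 (0.0543) and Phex (0.0708) missed the threshold. Cytl1 is not particular to fibroblasts in this tissue: 18.8% of endothelial cells had a UMI.

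The remaining genes of the 15 act inside the cell or in its membrane. Tmem204, a claudin-like membrane protein, had 128, 253 and 211 CPM in the members' sets, against 13.5, 0 and 24.4 CPM in the mid-score cells (log2 fold change 3.79 ± 0.58, edgeR adjusted p = 6.27e-05). It had a UMI in 38.2% of members, 10.5% of the mid-score cells and 42.2% of endothelial cells. Tbx20, a T-box transcription factor of the developing heart, had 198, 380 and 146 CPM in members, against 13.5, 0 and 48.7 CPM in the mid-score cells (3.42 ± 0.54, edgeR adjusted p = 7.75e-05). These sets were separate for both genes, but 388 of 429 members had no Tbx20 UMI. Its share of 9.56% of members was near the 8.89% of 45 gated smooth muscle cells, which rests on 4 cells with 5 UMIs. The pooled levels were apart, at 191 CPM of Tbx20 in members and 13.4 CPM in the smooth muscle cells. Pdlim3, an actin-associated PDZ and LIM protein (1.77 ± 0.47, edgeR adjusted p = 0.0163), and Asap1, a regulator of Arf GTPases (1.75 ± 0.39, edgeR adjusted p = 0.00413), completed the group. Asap1 had a UMI in 39.4% of members, 22.8% of the mid-score cells and 37.5% of the low-score cells. Pdlim3 had a UMI in 13.8% of members and 12.3% of the mid-score cells, below the 25.5% of endothelial cells and 23.5% of leukocytes. The share over all members hides cluster 4 of the members, described below, where 83.9% of cells had a UMI, at 892 CPM. The other clusters had 8.68 to 56.1 CPM, and their shares of 3.68 to 23.1% of cells are not told apart from background. Without hashtag set 1 the calls of Tbx20 (edgeR adjusted p = 0.0669), Pdlim3 (0.11) and Asap1 (0.0708) were lost, those of Pdlim3 (0.074) without set 2, and those of Pdlim3 (0.103) and Asap1 (0.0548) without set 3. All 15 genes stayed higher and past the threshold without the mesothelial barcodes.

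**Figure D2:**
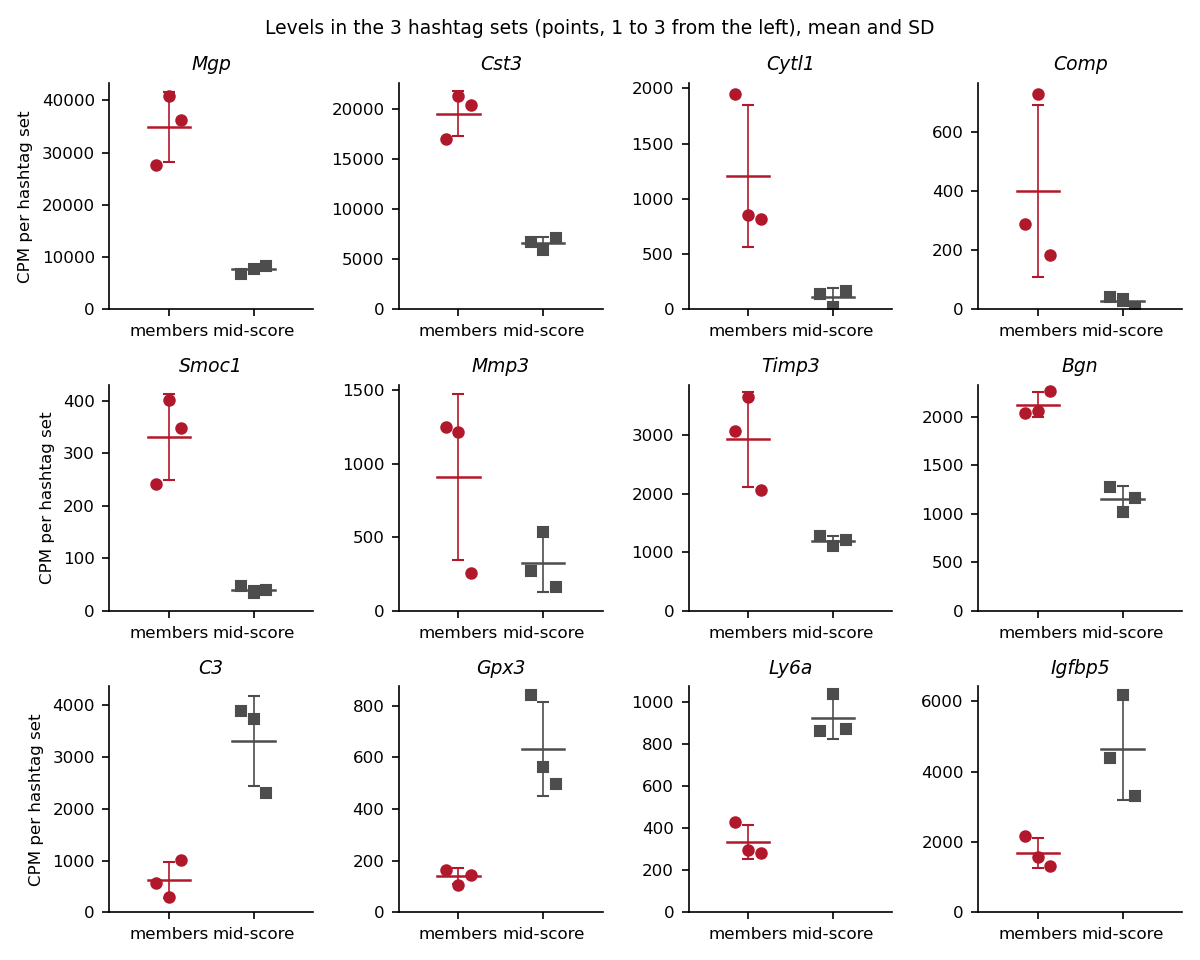
Levels in CPM (y axis, from 0) of selected genes in the 3 hashtag sets of members (left) and of the mid-score cells (right), with the mean and SD over the sets. Mgp lies between 27677 and 40880 CPM in members and between 6873 and 8311 CPM in the mid-score cells, whereas the sets of Mmp3 overlap.

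**Figure D3:**
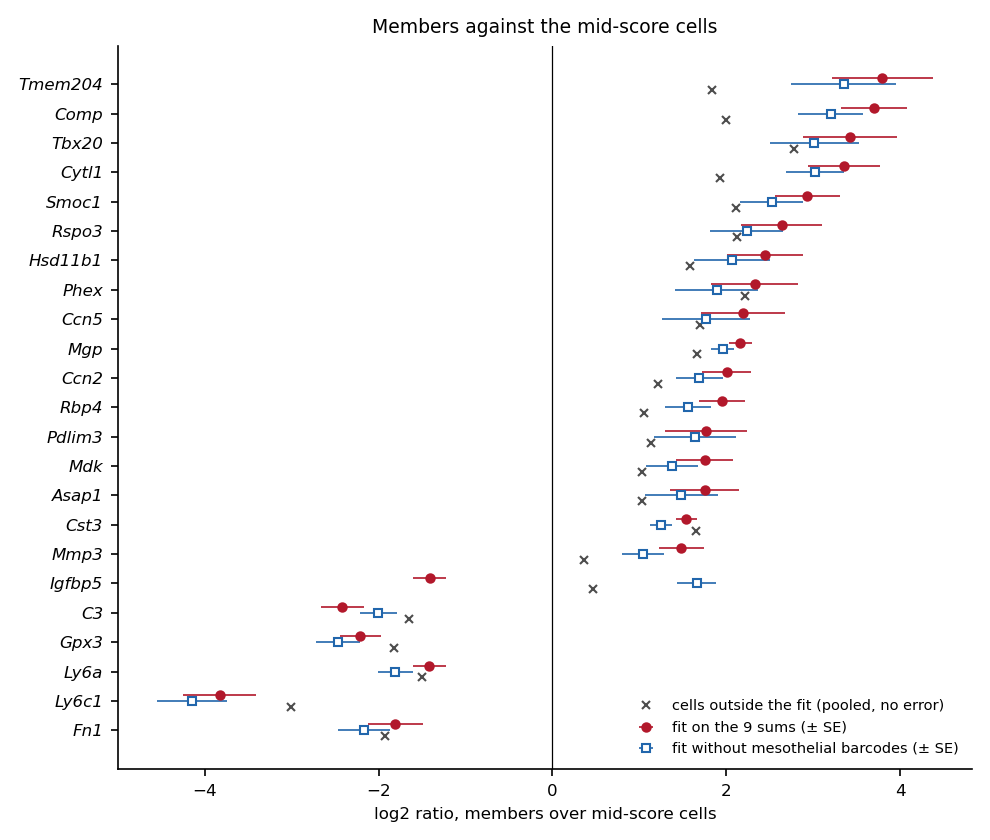
Log2 ratio of members over the mid-score cells (x axis) for named genes (rows), from the fit on the 9 sets (points, ± SE), from the fit without mesothelial barcodes (open squares, ± SE) and from the pooled cells outside the fit (crosses, no error). Mgp stands at 2.16 and 1.96 in the fits and at 1.66 outside them, and the crosses of the largest ratios lie closer to 0 than the fits.

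The genes with the largest decreases were mostly mesothelial or of the Pi16 state. Of the 10, Upk3b, Msln and Krt19 are on the mesothelial list, and Muc16, a mucin of the mesothelial surface, Gpm6a, Nkain4 and Wfdc2 were too low to be tested once the mesothelial barcodes were left out. The call of Wfdc2 was also lost without hashtag set 3 (edgeR adjusted p = 0.0818). Pooled over all cells, members had 1 UMI of Upk3b and 2 of Msln, against 395 and 201 UMIs in the mid-score cells. Krt19 had 0 UMIs in members, where a floor of 3 counts allows 1.60 CPM or 0.699% of cells, and 62.9 CPM in the mid-score cells, at least 39.2-fold lower in members. These directions depended on how the groups were cut: with the score groups taken within 10 classes of depth, Upk3b (1.97, edgeR adjusted p = 0.0355), Msln (2.43, 0.0359) and Krt19 (2.47, 0.0225) were called higher in members. Cmah, an enzyme of sialic acid synthesis, also went untested without these barcodes.

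Dpp4, a surface peptidase that marks Pi16 fibroblasts, had 0 UMIs in all 429 members and a UMI in 9.53% of the mid-score cells and 53.8% of the low-score cells. It was at least 33.4-fold lower in members than in the mid-score cells by the same floor, a bound that counts the mesothelial barcodes. Without them the mid-score sets had 25.2, 14.0 and 0 CPM of Dpp4, so set 3 showed no difference from the members. Without mesothelial barcodes the Dpp4 call was lost (edgeR adjusted p = 0.158), and without hashtag set 1 it missed the threshold as well (0.0598). Tnfaip6, a hyaluronan-binding protein, had 0 UMIs in the members' 3 sets and 13.5, 160 and 24.4 CPM in the mid-score cells (edgeR adjusted p = 0.00964). Its call was lost without hashtag set 1 (edgeR adjusted p = 0.0665). In the cells outside the test Tnfaip6 stood at 11.5 CPM in members and 25.7 CPM in the mid-score cells.

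Several complement genes were lower in members than in the mid-score cells. C3, the central component, had 573, 306 and 1007 CPM in the members' sets, against 3890, 3731 and 2313 CPM in the mid-score cells. The sets were far apart, with a log2 fold change of -2.42 ± 0.25 (edgeR adjusted p = 3.28e-07) and of -2.003 without mesothelial barcodes. C4b, of the classical pathway, had 112, 179 and 101 CPM in members, against 636, 404 and 260 CPM in the mid-score cells (-1.81 ± 0.28, edgeR adjusted p = 7.15e-05; -1.76 without mesothelial barcodes). Pooled over all cells, C4b stood at 163 CPM in members and 151 CPM in the low-score cells, and C3 at 812 and 3169 CPM. The proteases of the C1 complex, C1ra (-0.95 ± 0.23, edgeR adjusted p = 0.00948) and C1s1 (-0.89 ± 0.22, edgeR adjusted p = 0.00961), were lower too, at -0.95 and -0.85 without mesothelial barcodes. Of the 8 tested genes of the list, 4 were lower, with a median log2 fold change of -1.004, and without mesothelial barcodes 4 of 7 were lower, with a median of -0.95. The calls of C4b (edgeR adjusted p = 0.0772), C1ra (0.14) and C1s1 (0.222) were lost without hashtag set 1, that of C1ra (0.0809) without set 2 and that of C1s1 (0.112) without set 3.

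Genes of the Pi16 fibroblast state were lower in members, in the direction of the subtracted score genes. Of 9 tested genes of that list 0 were higher and 6 were lower, with a median of -1.42, or -1.81 and 5 lower without mesothelial barcodes. Ly6c1, a GPI-anchored surface protein, had 5.35, 21.1 and 36.6 CPM in the members' sets, against 250, 219 and 341 CPM in the mid-score cells (log2 fold change -3.83 ± 0.42, edgeR adjusted p = 6.90e-07; -4.15 without mesothelial barcodes). Ly6a (Sca-1), a surface marker of mesenchymal progenitors in the mouse, had 428, 296 and 284 CPM in members, against 859, 1036 and 868 CPM in the mid-score cells (-1.42 ± 0.19, edgeR adjusted p = 1.34e-05). The sets of both genes were separate. Anxa3, Fndc1 and Cd248 were lower as well, of which Fndc1 missed the threshold without hashtag set 1 (edgeR adjusted p = 0.0602) and Cd248 without any one of the 3 sets (0.0974 to 0.33). Gpx3, an extracellular glutathione peroxidase on another list, had 166, 106 and 146 CPM in members, against 839, 564 and 495 CPM in the mid-score cells (-2.21 ± 0.24, edgeR adjusted p = 4.57e-07; -2.47 without mesothelial barcodes).

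Among the matrix lists, the small leucine-rich proteoglycans had 3 of 7 tested genes higher and 0 lower, with a median of 0.79 on the log2 scale. Without mesothelial barcodes 3 were higher and 1 lower, with a median of 0.54. The lower one was Ogn, osteoglycin (-0.58, edgeR adjusted p = 0.00774). Bgn, biglycan, had 2044, 2059 and 2270 CPM in the members' sets, against 1279, 1019 and 1161 CPM in the mid-score cells (log2 fold change 0.86 ± 0.15, edgeR adjusted p = 3.16e-04). Prelp, which links basement membranes to collagen, had 605, 538 and 623 CPM in members, against 183, 177 and 211 CPM in the mid-score cells (1.62 ± 0.22, edgeR adjusted p = 1.43e-05). The sets were separate for both, and without mesothelial barcodes the values were 0.63 for Bgn and 1.44 for Prelp. Ecm2 was the other, and it lost its call without mesothelial barcodes (edgeR adjusted p = 0.301), without the hashtag block (0.0583) and without any one set. Fmod, fibromodulin, missed the threshold (0.79, edgeR adjusted p = 0.0958) but was called without mesothelial barcodes (2.10, edgeR adjusted p = 3.03e-04).

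Of 10 tested fibrillar and network collagens, 4 were higher and 0 lower, with a median of 0.48 (0.27 without mesothelial barcodes). Col15a1, a collagen of basement membrane zones, had 423, 327 and 430 CPM in the members' sets, against 122, 58.9 and 179 CPM in the mid-score cells (log2 fold change 1.72 ± 0.25, edgeR adjusted p = 3.88e-05; 1.37 without mesothelial barcodes). The genes of the type I collagen chains rose less: Col1a1 by 0.95 ± 0.18 (edgeR adjusted p = 9.42e-04) and Col1a2 by 0.86 ± 0.16 (5.38e-04), with adjusted p of 0.0669 and 0.0543 without hashtag set 1. Col3a1 did not pass (0.47, edgeR adjusted p = 0.089). Col6a3 passed but lost its call without mesothelial barcodes (edgeR adjusted p = 0.145), without hashtag set 1 (0.205) and without set 2 (0.334). Of 10 tested genes for collagen processing and crosslinking 0 passed in either direction. Without mesothelial barcodes 1 of 11 was lower, Pcolce2, an enhancer of procollagen cleavage (-1.09, edgeR adjusted p = 0.00106).

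Matricellular and adhesive glycoproteins had 8 of 17 tested genes higher and 3 lower, with a median of 0.80, against 6 higher and 4 lower without mesothelial barcodes, where Dpt, dermatopontin, was among the lower (-0.54, edgeR adjusted p = 0.0261). Besides Mgp, Smoc1 and the CCN genes already given, Sparc, a collagen-binding glycoprotein, was higher (0.80 ± 0.15, edgeR adjusted p = 8.67e-04; 0.0549 without hashtag set 1). Fibronectin, Fn1, had 53.5, 95.02 and 110 CPM in the members' sets, against 406, 202 and 219 CPM in the mid-score cells (-1.81 ± 0.32, edgeR adjusted p = 3.16e-04). Tenascin-X, Tnxb, had 91.0, 148 and 119 CPM in members, against 399, 177 and 227 CPM in the mid-score cells (-1.26 ± 0.31, edgeR adjusted p = 0.00847). Both were lower in every set, also without mesothelial barcodes (-2.17 for Fn1 and -1.595 for Tnxb), and both lost the call without hashtag set 1 (edgeR adjusted p = 0.112 for Fn1 and 0.442 for Tnxb). Postn, periostin, passed (1.39 ± 0.38, edgeR adjusted p = 0.0217), yet its share of 39.9% of members was near the 38.3% of leukocytes. The mid-score cells had a share of 21.2%. Pooled over all cells, Postn stood at 310 CPM in members, 119 CPM in the mid-score cells and 386 CPM in leukocytes. How much of the Postn level in members was free RNA was not tested. The Postn call was lost without hashtag set 1 (edgeR adjusted p = 0.383), without set 2 (0.255) and without the hashtag block (0.121). Elastic fibre genes were divided, with Ltbp3 and Mfap4 higher, Fbln1 and Efemp1 lower and elastin itself, Eln, at 321, 275 and 421 CPM in members, against 304, 463 and 414 CPM in the mid-score cells (-0.20, edgeR adjusted p = 0.696). The Mfap4 call was lost without mesothelial barcodes (edgeR adjusted p = 0.573) and without any one hashtag set, that of Ltbp3 without any one set (0.0598 to 0.0744), and those of Fbln1 and Efemp1 without set 1 (0.0598 each). Without mesothelial barcodes the list had 1 of 14 genes higher and 3 lower, with Emilin2 added (-1.78, edgeR adjusted p = 0.0487). Pooled over all cells, Fbln1 stood at 641 CPM in members and 496 CPM in the low-score cells, and Efemp1 at 172 and 711 CPM.

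Wnt modulators moved in both directions: of 8 tested, Rspo3, Ccn5 and Dkk3 were higher and Sfrp1 was lower, with a median of 0.04, or -0.36 with the same counts without mesothelial barcodes. Dkk3, a secreted Dickkopf family protein, had 546, 792 and 522 CPM in the members' sets, against 189, 109 and 284 CPM in the mid-score cells (log2 fold change 1.65 ± 0.27, edgeR adjusted p = 1.45e-04; 1.29 without mesothelial barcodes). Sfrp1, which binds Wnt ligands, had 337, 106 and 302 CPM in members, against 1096, 236 and 463 CPM in the mid-score cells (-1.23 ± 0.27, edgeR adjusted p = 0.0032; -1.56 without mesothelial barcodes). The Sfrp1 sets overlapped, and its call was lost without hashtag set 1 (edgeR adjusted p = 0.271) and without the hashtag block (0.0532), that of Dkk3 without set 1 (0.0543). Pooled over all cells, Sfrp1 stood at 274 CPM in members, 707 CPM in the mid-score cells and 217 CPM in the low-score cells. Of the BMP list, 0 of 7 tested genes passed in either direction; at an edgeR adjusted p under 0.05 the nearest was the BMP antagonist Chrdl1 (-1.23, 0.062). Without mesothelial barcodes 1 of 6 was lower, Fst, follistatin (-0.87, edgeR adjusted p = 0.0487), and the median was -0.29. Of 9 tested TGF-beta genes 2 passed as higher, Ccn2 and Postn, of which Postn had a share of cells near that of leukocytes. Tgfb2 was lower, a call lost without mesothelial barcodes (edgeR adjusted p = 0.249) and without hashtag set 1 (0.382).

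In the growth factor systems, the receptor Pdgfrb had 177, 296 and 238 CPM in the members' sets, against 54.1, 118 and 89.3 CPM in the mid-score cells (log2 fold change 1.43 ± 0.29, edgeR adjusted p = 0.0017; 0.0606 without hashtag set 1). Without mesothelial barcodes Pdgfrb was at 1.02 (edgeR adjusted p = 0.0263). Its relative Pdgfra, the common fibroblast receptor, did not pass (0.48, edgeR adjusted p = 0.258). The IGF-binding proteins differed from each other. Igfbp7 had 3136, 3579 and 4101 CPM in members, against 1847, 1154 and 1737 CPM in the mid-score cells (1.17 ± 0.17, edgeR adjusted p = 3.16e-05; 0.99 without mesothelial barcodes). Igfbp6 was lower (-3.19 ± 0.27, edgeR adjusted p = 1.28e-08), and much less so without mesothelial barcodes (-1.04, edgeR adjusted p = 0.0292). Igfbp5 changed direction: it had 2167, 1573 and 1333 CPM in members, against 4391, 6189 and 3320 CPM in the mid-score cells (-1.41 ± 0.19, edgeR adjusted p = 1.23e-05). Without mesothelial barcodes it had 2194, 1569 and 1293 CPM in members and 581, 293 and 722 CPM in the mid-score cells (1.66 ± 0.22, edgeR adjusted p = 2.99e-07). The low-score sets then had 3258, 6383 and 5165 CPM of Igfbp5, above the members.

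Igfbp5 was not alone in resting on mesothelial barcodes. The chemerin gene Rarres2 (-1.04, edgeR adjusted p = 1.49e-04), the class I gene H2-K1 (-1.23, 4.73e-05), Ly6e (-1.30, 1.91e-04) and the small heat shock gene Hspb1 (-1.28, 0.00635) were called lower with these barcodes and not without them (edgeR adjusted p = 0.779, 0.336, 0.967 and 0.967). Of the 6 tested immediate-early and heat shock genes that respond to tissue dissociation, only Hspb1 had passed, and 0 passed without the mesothelial barcodes. Among chemokines, Ccl11 (eotaxin) had 150, 73.9 and 54.9 CPM in members, against 216, 665 and 187 CPM in the mid-score cells (-1.69 ± 0.38, edgeR adjusted p = 0.00376, and 0.236 without hashtag set 2). Without mesothelial barcodes Ccl11 was at -2.16 (edgeR adjusted p = 1.63e-05). Of the other lists, the 77 cytosolic ribosomal protein genes, grouped after their values were seen, had 0 higher and 18 lower with a median of -0.36, and 43 lower without mesothelial barcodes. Ribosomal transcripts made up a median of 12.8% of UMIs in members and 17.1% in the mid-score cells.

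**Figure D4:**
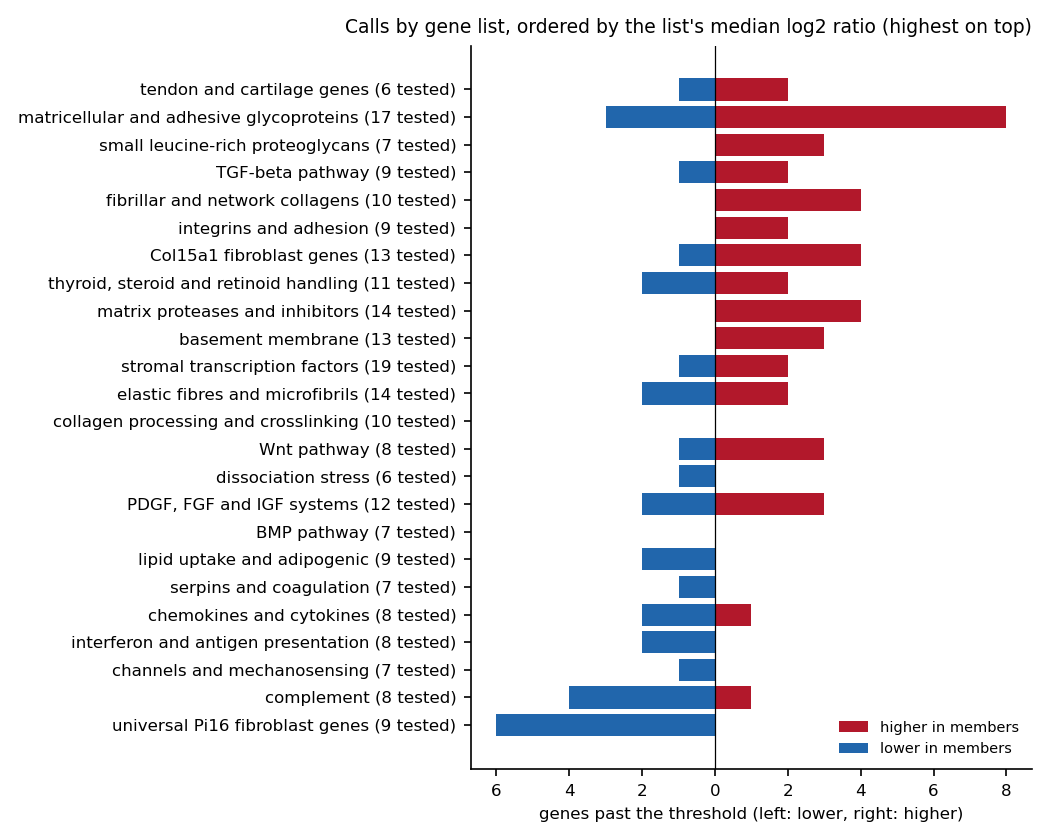
Number of genes past the threshold in each gene list (rows, ordered by the list's median log2 ratio), higher in members to the right and lower to the left. Matricellular genes have 8 higher and 3 lower, complement genes 4 lower, and Pi16 fibroblast genes 0 higher and 6 lower.

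Members were not uniform. Leiden clustering gave 5 clusters, described by the genes that lead them with no test, since the same transcripts made the clusters. Cluster 1 (152 cells) had the highest Mgp, at 54027 CPM, with Igfbp5 at 3765 CPM and Cytl1 at 3052 CPM, and held 76.1% of the members' Cytl1 UMIs. Cluster 2 (136 cells) was led by secreted Wnt modulators and elastic fibre genes, with Sfrp2 at 2109 CPM and 130 CPM in cluster 1, Fbln5 at 1528 CPM and Ccn5 at 314 CPM. It held 53.3% of the members' Mmp3 UMIs. Cluster 3 (97 cells) carried transcripts that are low in members as a whole, with C3 at 2508 CPM, Gpx3 at 774 CPM and Sfrp1 at 1139 CPM. Its median score of 4.18 was the lowest of the clusters, and its median depth of 3548 UMIs the shallowest.

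Cluster 4 was small and distinct, 31 cells with a median of 5436 UMIs. It had Tbx20 at 1874 CPM, in all of its cells, and held 93.9% of the Tbx20 UMIs and 82.5% of the Pdlim3 UMIs of the members. It also led in Wif1, a Wnt inhibitor, at 669 CPM, in Thbs1 at 1110 CPM and in vimentin, Vim, at 8607 CPM, against 1235 to 1430 CPM in the other clusters. Added score genes were low there: F3 stood at 44.6 CPM and Serpinf1 at 502 CPM, in 77.4% of its cells, against 973 CPM of Serpinf1 in the mid-score cells, while Lum stood at 1640 CPM. Subtracted genes were lower still, which kept the median score at 5.50. Pi16 stood at 27.9 CPM and Clec3b at 5.58 CPM, against 312 and 434 CPM in cluster 1, and Scara5 and Pla1a had 0 UMIs. The description of members as high in Serpinf1 does not hold for these cells. Of these cells 5, 2 and 1 carried hashtag 1, 2 or 3, so the test of Tbx20 rested on few of them. Cluster 5 (13 cells) was led by interferon-induced genes, with Isg15 at 1198 CPM, Ifit3 at 1123 CPM and Rsad2 at 281 CPM, and had Mmp3 at 2283 CPM. Tbx20 and interferon-induced clusters contained cells of all 3 hashtags.

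**Figure D5:**
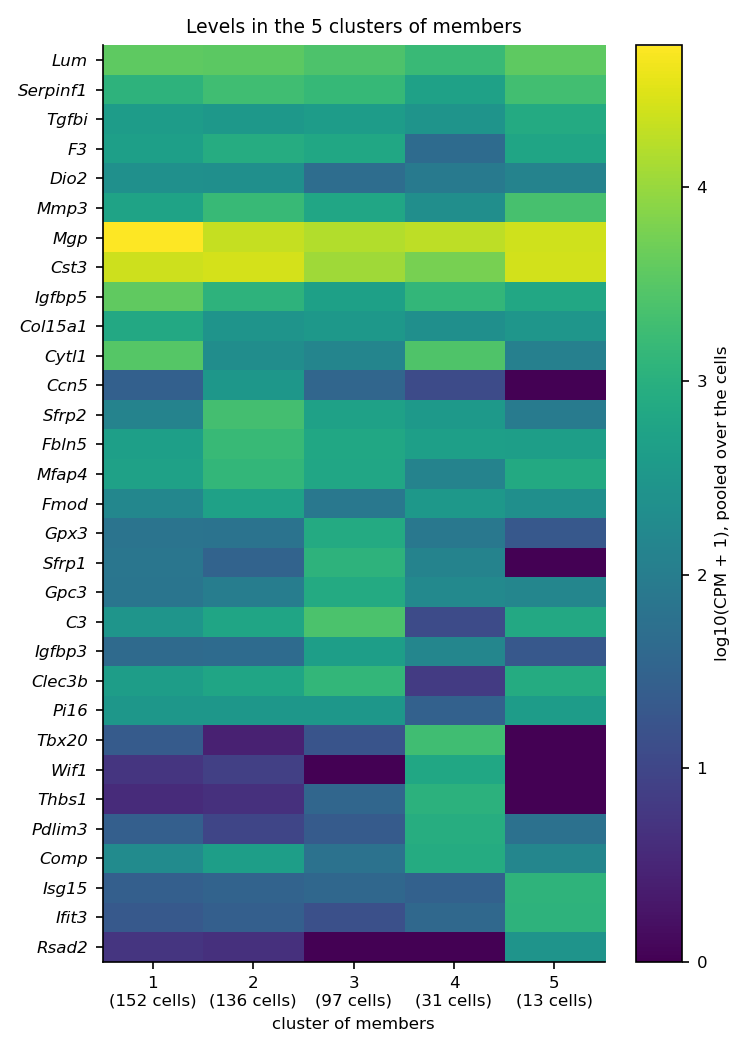
Levels (colour, log10 of CPM + 1, pooled over the cells) of leading genes (rows) in the 5 clusters of members (columns, with their number of cells). Mgp is highest in cluster 1 at 54027 CPM, Sfrp2 in cluster 2 at 2109 CPM, C3 in cluster 3 at 2508 CPM, Tbx20 in cluster 4 at 1874 CPM and Isg15 in cluster 5 at 1198 CPM.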

How the data were processed

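Raw UMI counts per gene and hashtag, deposited as 1 matrix from Cell Ranger 6.0.1 (per the file headers), were used without normalization by the authors. The submitters' processing notes list mm10 and Seurat 4.0.5, and no annotation is named in the sources used here. The members and gene lists were chosen with earlier results of these data known.

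Levels are CPM over the UMIs of all genes, TMM-scaled for the sets. Hashtags were called with HTODemux (Seurat 5.3.0, quantile 0.99). Counts were summed per hashtag and score group, and edgeR 4.0.16 in R 4.3.3 (glmQLFit, glmQLFTest, TMM, filterByExpr, hashtag as a block) tested the 9 sums, with Benjamini-Hochberg adjustment over all tested genes that the rule did not use. With 1 sample per age, no test between ages was made. Genes described singly were the 15 with the largest increases and the 10 with the largest decreases among those called, at 50 CPM or more in either group and with 1 direction in all sets, plus the score genes, Mmp3 and the list genes. Of 32285 gene IDs, 32158 matched the reference names. In simulated data with 2191 tested genes the fit called 45.0% of 2-fold and 90.6% of 4-fold changes, and 7 unchanged genes. The simulation had no hashtag effect and a dispersion (spread between sets beyond counting error) of 0.05. The real sums had a common dispersion of 0.018, so these rates are not those of the real sets. Clusters of members used scanpy 1.11.5 (resolution 0.4). Alternatives were DESeq2 1.42.0, other scaling, filters, gates, scores, hashtag callers, thinning to 1500 UMIs and leaving out each hashtag. Of the genes looked up, 21 of 34 had a RefSeq promoter. Intervals cover counting error only. The result of 1 list gene is not reported here.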

Additional observations from a re-analysis of the deposited data

How the results depend on the processing

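Directions held more often than calls: over 83 named genes and 18 alternatives, 3 of them added after seeing the data, 1334 of 1366 values kept their direction, and only Bgn, C3, Cst3, Hsd11b1, Igfbp7 and Mgp passed the threshold under every alternative that tested them. Scaling moved the median of all genes little, and no named gene reversed with RLE size factors. The correlations across genes gave no sign that the hashtag numbers pair the sets, but sums of so few cells may not show a pairing. Without the hashtag as a replicate block 62 genes were higher and 119 lower, and 62 of the 70 and 113 of the 122 genes were called again. Leaving out 1 hashtag gave 31 to 50 higher and 37 to 91 lower genes, with set 1 the one that cost most calls. Other groupings kept fewer of the same genes: with the score groups taken within 10 classes of depth 71 and 131 genes were called, but only 31 of the 70 and 47 of the 122 again, and with the score of the 5 added genes 32 and 37.

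Against 70 higher and 122 lower genes, DESeq2 gave 29 and 53, the ratio caller 23 and 22, the highest hashtag for every barcode 343 and 481, the limit of 1000 UMIs and 10% mitochondrial UMIs 32 and 37, thinning to 1500 UMIs 27 and 21, the stricter gate 46 higher, and a score of the 5 added genes 65 lower. All but DESeq2 also tested another number of genes.

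With the score of the 5 added genes alone, Comp turned to -1.60 (edgeR adjusted p = 0.00535), Tbx20 to -2.13 and Pdlim3 to -0.88, and Muc16 to 0.076, Msln to 0.086, Gpm6a to 2.25, Nkain4 to 0.65, Rarres2 to 0.19, Igfbp5 to 0.031, Cav1 to 0.13, H2-K1 to 0.10 and Ly6e to 0.14. With the score groups taken within 10 classes of depth, Upk3b turned to 1.97 (edgeR adjusted p = 0.0355), Muc16 to 2.14, Msln to 2.43 (0.0359), Krt19 to 2.47 (0.0225), Dpp4 to 0.021, Gpm6a to 1.27, Nkain4 to 0.84, Cmah to 0.50, Rarres2 to 0.55 (0.041), Igfbp5 to 0.79, Igfbp6 to 0.055, C4b to 0.094, Cav1 to 0.57, Hspb1 to 0.13 and Ly6e to 0.45. Without mesothelial barcodes Igfbp5 turned to 1.66, or 1.52 when the score groups were taken again. Thbd (0.58) and Ebf1 (0.31) turned with the ratio caller and Sparcl1 (-0.015) with the highest hashtag. The causes of these changes were not tested. Only 262 gated barcodes carried a single hashtag, which limits the sets to 89 members and 84 mid-score cells.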

Other observations

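Within the members, levels varied with the score. In the 143 members with the highest scores Mgp stood at 40118 CPM, in the next 143 at 35603 CPM and in the 143 with the lowest at 19151 CPM. C3 ran the other way, at 480, 590 and 1414 CPM over the same steps, and Gpx3 at 101, 151 and 375 CPM. Smoc1 was seen in 62.2%, 58.7% and 26.6% of these cells. Cytl1 (1689, 1635 and 1098 CPM) and Comp (295, 337 and 261 CPM) varied less. The 3 steps had median depths of 4377, 4476 and 3833 UMIs, and no test was made.

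Shares of members with pairs of genes are given as a description only, because the score genes chose the cells. A member with an added gene could hold more of a subtracted gene and still pass the cut. The values of Pi16 by Dio2 are therefore not read as a link between the genes. Pi16 had a UMI in 63.0% of members with Dio2 (median 4554.5 UMIs) and 39.9% of those without it (4007 UMIs). Tbx20 had one in 3.30% of members with F3 and 24.6% of those without it, at median depths of 4157 and 4304.5 UMIs.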
